A study of Triticum aestivum with 10 samples.

Results

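The subject here is the gibberellin 20-oxidase gene of hexaploid wheat, measured as its A, B and D subgenome copies in very young seeds. Members were all probe sets that the array's annotation assigns to LOC543327 (synonym GA20OX1-A), LOC543326 (GA20ox1b) or LOC543325 (GA20ox1d). They were 4 of 61179 tested probe sets and 3 of the 771 genes that carry a symbol. The A and the B copy were each read by 1 probe set. The D copy was read by a pair, called probe set 1 and probe set 2 below, of which probe set 2 is the one whose name ends in x_at. All 3 genes were matched by identifier in the RefSeq gene table of bread wheat, whose synonyms give the copy of each.

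Seeds came from Redland, a winter wheat cultivar grown in pots in a growth chamber after a cold treatment of the seedlings. Each of 10 Affymetrix wheat arrays held RNA of whole developing seeds, in 5 groups of 2: droughted plants at 48 and at 72 hours after fertilization (HAF), and watered control plants at 48, 72 and 24 HAF. Drought meant that watering was stopped. The descriptions place its start at 24 HAF in one place and at 48 HAF in another. Replicates are called biological but no plant or pot is named for them, so each p rests on variation among these arrays alone, which may be technical. The labels give the tissue as whole seed and, in one field, also as endosperm. A whole seed at this age mixes maternal layers, endosperm and embryo, so fewer cells of a type and less RNA per cell cannot be told apart. Only the 1 cultivar was used, and the small number of arrays limits the precision of every value.

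Gibberellins are plant hormones that promote growth and, in cereal grains, turn on the hydrolytic enzymes of the aleurone. Gibberellin 20-oxidase is a 2-oxoglutarate-dependent dioxygenase of the cytosol that oxidises gibberellin precursors late in the pathway. A gibberellin 3-oxidase then makes the active hormones, and gibberellin 2-oxidases inactivate them. In many plants the 20-oxidase is a controlled step, repressed by active gibberellin through feedback. Bread wheat carries 3 related subgenomes, so most of its genes exist as an A, a B and a D copy of very similar sequence. A probe made for one copy may bind RNA of another, and probe sets whose name ends in x_at are those in which the array's maker expected some probes to bind further transcripts. How much the 4 probe sets share was not analysed here.

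The arrays did not all fall in with their labels. Control 24 HAF replicate 2 correlated at r = 0.811 to 0.898 with the other 9 arrays, which correlated at 0.922 to 0.996 with one another. Its spiked-in bacterial control BioB read 11.9 on the log2 scale, against 4.01 to 6.97 elsewhere. The gamma-gliadin gene LOC543214, an endosperm storage protein gene, read 7.55 on that array and 1.84 on control 24 HAF replicate 1. The same gene read 8.62 and 8.17 on the drought arrays of 72 HAF, against 1.60 on control replicate 1 and 8.73 on control replicate 2. On the 4 arrays of 48 HAF it lay between 1.59 and 1.80. Some other genes split those arrays across treatment. THI1.1, a thionin gene, read 5.45 and 2.37 in drought seeds and 2.53 and 5.47 in control seeds. Drought replicate 1 and control replicate 2 of 48 HAF correlated most with each other (r = 0.993). Control 48 HAF replicate 1 correlated most with control 24 HAF replicate 1 (0.996). Control 72 HAF replicate 2 did so with drought 72 HAF replicate 1 (0.996). These pairs cross treatment or time, a limit on every comparison. The gamma-gliadin values therefore go against the labelled time on 2 arrays, and differences between groups that use either are given with and without it. Drought 72 HAF replicate 2 was also less like the rest. Its highest r to any array was 0.959. The next lowest such value, control 24 HAF replicate 2 aside, was 0.982 on control 72 HAF replicate 1.

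The A copy, LOC543327, had log2 values of 4.18 and 4.34 in drought seeds and 3.73 and 3.94 in control seeds at 48 HAF. At 72 HAF it read 4.09 and 4.87 in drought seeds and 4.85 and 4.36 in control seeds. At 24 HAF it read 3.93 and 3.74. The drought arrays of 48 HAF lay above their controls with no overlap, and the arrays of 72 HAF overlapped. Group means ran from 4.60 ± 0.35 (SD, n = 2) in control 72 HAF seeds through 4.48 ± 0.55 in drought 72 HAF, 4.26 ± 0.11 in drought 48 HAF and 3.83 ± 0.15 in control 48 HAF to 3.83 ± 0.14 in control 24 HAF. Of the 4 steps between neighbours in that order, only the one between drought and control at 48 HAF had arrays that did not overlap.

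The B copy, LOC543326, varied least. It read 2.71 and 3.06 in drought seeds and 2.78 and 2.57 in control seeds at 48 HAF. At 72 HAF the values were 2.76 and 2.67 under drought and 3.02 and 2.67 with water, and at 24 HAF 2.61 and 2.56. All 10 values lay within 0.49 of each other, and 94.0% of the tested probe sets had an SD over the arrays at least as large. Over the 9 arrays without control 24 HAF replicate 2 that share was 81.3%. Every pair of neighbouring groups overlapped, from drought 48 HAF at the top (2.88 ± 0.25, SD, n = 2) to control 24 HAF at the bottom (2.59 ± 0.032). Its values stood at percentiles 9.19 to 34.2 of their arrays. Signal over background is not in the values used here, so whether this probe set detected the B copy was not tested. The same holds for the other copies. The A copy stood at percentiles 38.8 to 59.6, D probe set 1 at 28.6 to 75.2 and D probe set 2 at 52.2 to 77.2.

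The D copy, LOC543325, varied most, and it did so between replicates. Probe set 1 read 4.99 and 4.96 in drought seeds and 4.76 and 4.92 in control seeds at 48 HAF. At 72 HAF it read 4.90 and 6.17 under drought and 5.93 and 4.96 with water. Thus 1 array of each treatment lay at the 48 HAF level and the other clearly above it. Probe set 2 gave the same picture, with 4.62 and 4.76 in drought seeds against 4.51 and 4.60 in control seeds at 48 HAF, and 4.63 and 5.81 in drought seeds against 5.48 and 4.54 in control seeds at 72 HAF. In both probe sets the drought arrays of 48 HAF lay just above their controls without overlap.

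At 24 HAF the D probe sets contradicted each other. Replicate 1 read 4.94 in probe set 1 and 4.27 in probe set 2. On replicate 2, the array that stands apart, probe set 1 had its lowest value of all arrays, 3.40, and probe set 2 its highest, 5.82. Within an array, probe set 1 minus probe set 2 was -2.42 on this array, 0.67 on control 24 HAF replicate 1 and 0.20 to 0.45 on the 8 arrays of 48 and 72 HAF. The level of the D copy at 24 HAF therefore has no agreed value in these data. The group means of probe set 1 ran from 5.53 ± 0.90 (SD, n = 2) in drought 72 HAF seeds through 5.45 ± 0.69 in control 72 HAF, 4.97 ± 0.024 in drought 48 HAF and 4.84 ± 0.11 in control 48 HAF to 4.17 ± 1.09 in control 24 HAF. Those of probe set 2 ran from 5.22 ± 0.84 in drought 72 HAF through 5.04 ± 1.09 in control 24 HAF, 5.01 ± 0.67 in control 72 HAF and 4.69 ± 0.096 in drought 48 HAF to 4.56 ± 0.067 in control 48 HAF. In both orders only drought and control at 48 HAF were neighbours whose arrays did not overlap.

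**Figure D1:**
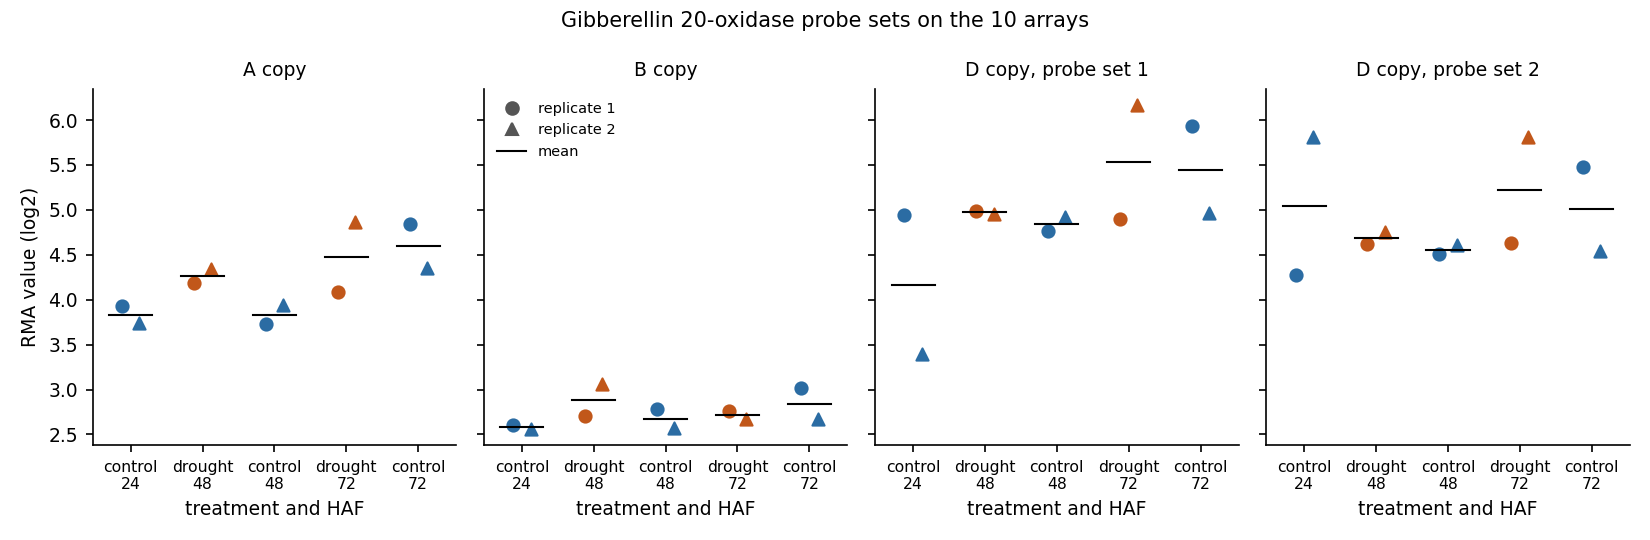
Deposited log2 RMA values of the 4 gibberellin 20-oxidase probe sets (vertical axis) by treatment and hours after fertilization (horizontal axis), with 1 point per array (orange drought, blue control) and a line at the mean of each group of 2. The A copy and both D probe sets are higher on drought 72 HAF replicate 2 and control 72 HAF replicate 1 than on the other arrays of that time, the B copy stays between 2.56 and 3.06, and the D probe sets part on control 24 HAF replicate 2.

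Replicates of the D copy differed more than those of most probe sets at 72 HAF. Probe set 1 differed by 1.27 between the drought arrays and by 0.97 between the control arrays, where the medians over all probe sets were 0.47 and 0.27. Only 8.78% and 6.89% of all probe sets differed by as much. For the A copy the same differences were 0.78 and 0.49, reached by 27.2% and 26.2% of probe sets. At 48 HAF the replicates of D probe set 1 lay 0.034 apart under drought and 0.16 apart with water, below the medians of 0.18 and 0.19.

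Whether drought changes the copies was asked first at 48 HAF. There the A copy was 0.43 higher in drought than in control seeds on the log2 scale (SE 0.34, 95% interval -0.35 to 1.20), or 1.35-fold. The B copy was 0.20 higher (-0.34 to 0.75), and the D copy 0.13 higher in probe set 1 (-1.26 to 1.52) and 0.13 higher in probe set 2 (-1.22 to 1.49). None of these passed limma's adjusted p of 0.05 (adjusted p = 1 for each), nor did any of the 61179 probe sets (0%). An unadjusted p under 0.05 was found for 0 members and for 0.134% of all probe sets. Arrays did not overlap, with drought higher, in 3 of the 4 member probe sets, against 15.9% of all probe sets. They lay lower without overlap in 0 of 4, against 15.4%. Probe sets of 1 gene and of its subgenome copies are not independent, so the 3 are not separate observations. Leaving out 1 array at a time moved the A difference over 0.32 to 0.54, B over 0.028 (without drought replicate 2) to 0.38 (without drought replicate 1), D probe set 1 over 0.057 (without control replicate 1) to 0.21 (without control replicate 2) and D probe set 2 over 0.063 (without drought replicate 2) to 0.20 (without drought replicate 1), with no change of sign. Among all tested probe sets, 2.12% had a difference as high as that of the A copy and 23.5% one as high as that of D probe set 1.

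At 72 HAF no direction was shared. The A copy differed by -0.12 between drought and control seeds (95% interval -0.90 to 0.65) and the B copy by -0.13 (-0.68 to 0.42). The D copy differed by 0.09 in probe set 1 (-1.30 to 1.47) and by 0.21 in probe set 2 (-1.15 to 1.56). Drought and control arrays overlapped in each of the 4 probe sets, where 13.0% of all probe sets lay higher and 8.37% lower without overlap. The limma adjusted p was 1 for each, 0% of all probe sets passed, and 0.412% had an unadjusted p under 0.05, none of them a member. Without control 72 HAF replicate 1, whose storage protein genes averaged 4.02, the differences were 0.12 (A), 0.044 (B), 0.57 (D probe set 1) and 0.68 (D probe set 2). Without drought 72 HAF replicate 2 they were -0.51 (A), -0.085 (B), -0.55 and -0.38 (D), so the sign of each of the 4 differences depended on which of these arrays was kept.

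Over both times together, drought minus control was 0.15 for the A copy (95% interval -0.40 to 0.70), 0.04 for the B copy (-0.35 to 0.42), 0.11 for D probe set 1 (-0.87 to 1.09) and 0.17 for D probe set 2 (-0.79 to 1.13). None passed limma's threshold (adjusted p = 1 for each), and 0% of probe sets did, while 0.111% had an unadjusted p under 0.05. Drought and control arrays pooled over both times overlapped in all 4 probe sets, against 0.417% of all probe sets higher and 0.304% lower without overlap. Leaving out control 72 HAF replicate 1 gave 0.27 (A), 0.12 (B), 0.35 (D probe set 1) and 0.41 (D probe set 2), and leaving out drought 72 HAF replicate 2 gave -0.043, 0.060, -0.21 and -0.13 for the same probe sets. The drought effect at 72 HAF minus that at 48 HAF was -0.55 for the A copy (-1.65 to 0.54) and -0.33 for the B copy (-1.11 to 0.44). For the D copy it was -0.05 (-2.01 to 1.92) and 0.08 (-1.84 to 1.99). In this test of the difference itself no member passed (limma adjusted p = 1 for each; 0% of all probe sets, and 0.371% with an unadjusted p under 0.05). It was -0.31 (A), -0.16 (B), 0.44 and 0.55 (D) without control 72 HAF replicate 1, and -0.94 (A), -0.29 (B), -0.68 and -0.52 (D) without drought 72 HAF replicate 2. Over all fits that left out 1 array it ran from -0.94 to -0.16 for A, with the upper end reached without drought 72 HAF replicate 1, and from -0.51 (without drought 48 HAF replicate 1) to -0.16 (without drought 48 HAF replicate 2) for B.

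**Figure D2:**
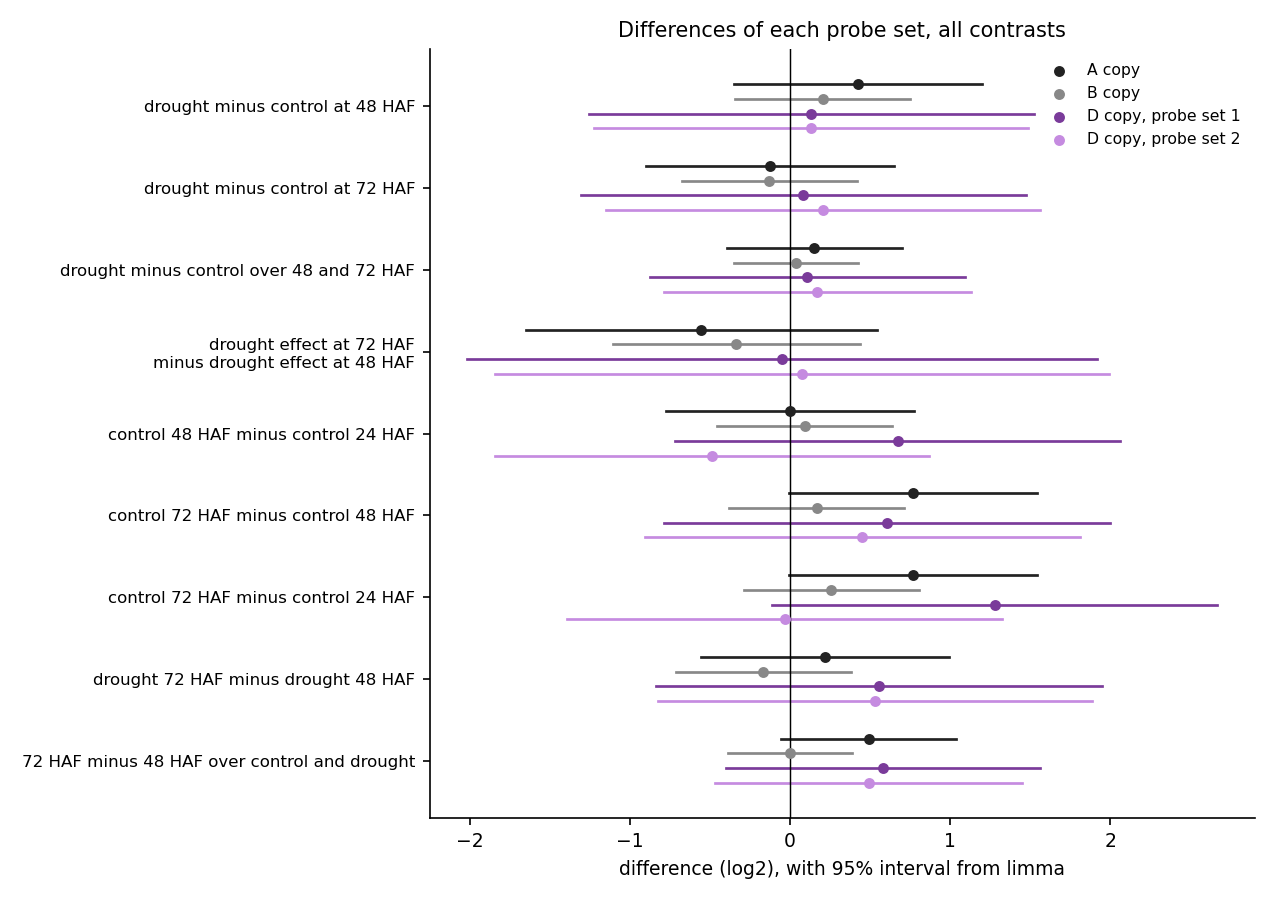
Difference in log2 value (horizontal axis, point) with its 95% interval from limma (line) for each of the 4 probe sets in each of the 9 comparisons (vertical axis). Every interval covers 0. The intervals of the A copy between control 72 HAF and the earlier controls come closest to leaving it out, and those of the D copy are the widest.

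The second question was how the copies change as the watered seed develops. The A copy was 0.77 higher at 72 than at 48 HAF in control seeds (SE 0.34, 95% interval -0.0046 to 1.54), or 1.70-fold, with no overlap of the arrays. Its unadjusted limma p was 0.0511 and its adjusted p was 1, and 0% of all probe sets passed while 0.306% had an unadjusted p under 0.05. Of all probe sets, 2.52% had a difference at least as large in either direction. D probe set 1 was 0.61 higher (-0.78 to 1.996), D probe set 2 0.45 higher (-0.90 to 1.81) and the B copy 0.17 higher (-0.38 to 0.71), none of them past the threshold (limma adjusted p = 1 for each). Arrays did not overlap in the A copy and D probe set 1, that is in 2 of the 4 probe sets, against 15.7% of all probe sets with 72 HAF higher. None lay lower without overlap, against 17.3%. The gap of D probe set 1 was narrow (4.96 against 4.92), and the 2 probe sets are not separate observations. Without control 72 HAF replicate 1 the A difference was 0.52, that of D probe set 1 was 0.12, and those of D probe set 2 and the B copy were -0.018 and -0.0062.

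In droughted seeds the 72 minus 48 HAF difference was 0.22 for the A copy (95% interval -0.56 to 0.99) and -0.17 for the B copy (-0.71 to 0.38). The D copy differed by 0.56 in probe set 1 (-0.83 to 1.95) and 0.53 in probe set 2 (-0.83 to 1.89). No member passed (limma adjusted p between 0.953 and 0.963), and 0% of all probe sets did. An unadjusted p under 0.05 was found for 0 members, against 4.04% of all probe sets. Arrays of the times overlapped in each of the 4 probe sets, against 23.3% of all probe sets higher and 21.2% lower without overlap. Without drought 72 HAF replicate 2 the differences were -0.17 for A, -0.12 for B, -0.078 for D probe set 1 and -0.062 for D probe set 2. The higher D means at 72 HAF thus rested on that 1 array under drought and largely on control 72 HAF replicate 1 with water.

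Taking both treatments together, with 4 arrays at 72 HAF and 4 at 48 HAF, the A copy was 0.49 higher at 72 HAF (95% interval -0.054 to 1.04), D probe set 1 0.58 higher (-0.40 to 1.56) and D probe set 2 0.49 higher (-0.47 to 1.45). The B copy differed by -0.00020 (-0.39 to 0.39). None was past the threshold (limma adjusted p = 0.974 for the A copy and both D probe sets and 1 for the B copy; 0% of all probe sets). An unadjusted p under 0.05 was found for 0 members, against 3.76% of all probe sets. Arrays of the times overlapped in all 4, against 4.90% of all probe sets higher and 7.31% lower without overlap. The difference of the A copy kept its sign in each fit that left out 1 array, between 0.30 and 0.69, as did D probe set 1 (0.26 to 0.90) and D probe set 2 (0.20 to 0.79), with the lower end without drought 72 HAF replicate 2 and the upper end without drought 72 HAF replicate 1. In the fit without control 72 HAF replicate 1 the differences were 0.37 (A), -0.087 (B), 0.34 and 0.26 (D), and 2 probe sets were called, none of them a member.

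Between 24 and 48 HAF in watered seeds the A copy had a difference of 0.0015 (95% interval -0.77 to 0.78), and the B copy differed by 0.09 (-0.46 to 0.64). D probe set 1 was 0.67 higher at 48 HAF (-0.72 to 2.06) and D probe set 2 differed by -0.49 (-1.84 to 0.87). The arrays overlapped in all 4 probe sets, against 9.86% of all probe sets higher and 15.0% lower without overlap, and 1.48% had an unadjusted p under 0.05, with 0 members among them. Without control 24 HAF replicate 2 the differences were -0.094 (A), 0.069 (B), -0.099 and 0.28 (D), so the signs of A and of both D probe sets turned with that array. Between 72 and 24 HAF in watered seeds the A copy differed by 0.77 (-0.0030 to 1.54) and D probe set 1 by 1.28 (-0.11 to 2.67), while D probe set 2 differed by -0.03 (-1.39 to 1.32) and the B copy by 0.26 (-0.29 to 0.80). The limma adjusted p of the members lay between 0.638 and 0.999 for 48 against 24 HAF and between 0.728 and 0.985 for 72 against 24 HAF, and 0% of all probe sets passed in both. At 72 HAF the arrays lay above those of 24 HAF without overlap in A, B and D probe set 1, 3 of the 4, against 8.60% of all probe sets, and 0 of 4 lay lower, against 12.2%. The gap was narrow in D probe set 1 (4.96 against 4.94) and in B (2.67 against 2.61). D probe set 2 of the same gene overlapped, and the 3 are not separate observations. An unadjusted p under 0.05 was found for 0 members, against 2.07% of all probe sets. Without control 24 HAF replicate 1, which leaves the array that stands apart alone at its time, the 72 against 24 HAF difference of D probe set 1 was 2.05 and past the threshold, in a fit that called 22783 probe sets. Without control 24 HAF replicate 2 it was 0.51, with 0.67 for A, 0.24 for B and 0.74 for D probe set 2, and 0 probe sets were called. Without control 72 HAF replicate 1 the differences were 0.53 (A), 0.085 (B), 0.79 and -0.505 (D).

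Since levels of different probe sets are not on one scale, the copies were compared by their changes: one probe set minus another within each array, tested by exact permutation over the 8 arrays of 48 and 72 HAF. Labels were exchanged within times or treatments, giving 36 arrangements, so that no p under 0.0556 was possible. All 6 pairs of probe sets were tested for both drought and time, 12 tests in all. In the change between 72 and 48 HAF the A copy exceeded the B copy by 0.49 (95% interval -0.20 to 1.18, exact p = 0.111, Benjamini-Hochberg adjusted p = 0.667). A minus B was 1.33 and 2.20 in drought 72 HAF seeds, against 1.48 and 1.28 in drought 48 HAF seeds, and 1.83 and 1.69 in control 72 HAF seeds, against 0.94 and 1.37 in control 48 HAF seeds. The control arrays of the 2 times did not overlap, while the drought arrays did. How often other pairs of probe sets do so was not computed. Among single probe sets, control arrays did not overlap in 15.7% with 72 HAF higher and 17.3% with it lower. The difference was 0.46 without control 72 HAF replicate 1, 0.28 without drought 72 HAF replicate 2 and 0.71 without drought 72 HAF replicate 1, the last pair being the extremes over all arrays left out.

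The time change of the B copy minus that of the D copy was -0.58 for probe set 1 (95% interval -1.68 to 0.52) and -0.49 for probe set 2 (-1.503 to 0.52), with exact permutation p = 0.222 for both and an adjusted p of 0.667. These were -0.43 and -0.34 without control 72 HAF replicate 1, -0.24 and -0.17 without drought 72 HAF replicate 2, and -0.92 and -0.81 without drought 72 HAF replicate 1. The time change of the A copy minus that of the D copy was -0.09 for probe set 1 (-0.59 to 0.41, exact p = 0.611) and 0.0011 for probe set 2 (-0.43 to 0.43, exact p = 1), or 0.032 and 0.11 without control 72 HAF replicate 1. In the drought effect, the copies differed by 0.11 for A minus B (-0.58 to 0.80), 0.04 and -0.02 for A minus the D probe sets, and -0.07 and -0.13 for B minus the D probe sets, with exact permutation p between 0.667 and 0.944. Without control 72 HAF replicate 1 these were 0.15, -0.078, -0.13, -0.23 and -0.28 in that order. The D probe sets differed from each other by -0.06 in the drought effect (-0.20 to 0.079) and by 0.09 in the time change (-0.050 to 0.23), with exact p = 0.333 for drought and 0.167 for time, the narrowest intervals of the 12. Without control 72 HAF replicate 1 they were -0.053 and 0.083. No difference between copies could pass 0.05, since the smallest possible exact permutation p was 0.0556, so these tests cannot decide whether the copies differ. The intervals leave room for differences of over 1 log2 unit between B and D. Whether the low-reading B probe set detected its copy was not tested, so differences that involve B may not be differences between transcripts.

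**Figure D3:**
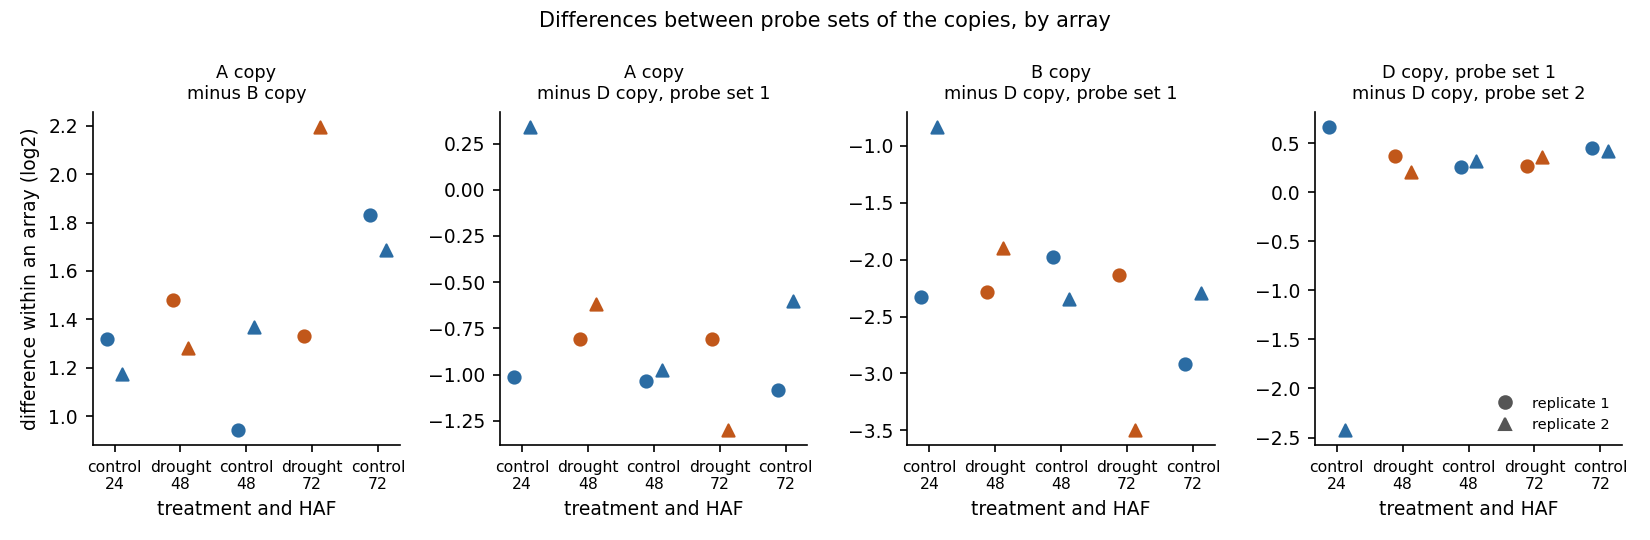
Difference between 2 probe sets within the same array (vertical axis, log2) by treatment and hours after fertilization (horizontal axis), with 1 point per array, for A minus B, A minus D probe set 1, B minus D probe set 1 and the D probe sets. The D probe sets keep a difference of 0.20 to 0.67 on 9 arrays and differ by -2.42 on control 24 HAF replicate 2. A minus B is highest (2.20) and B minus D probe set 1 lowest (-3.495) on drought 72 HAF replicate 2. Drought is orange and control blue.

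Across the 10 arrays the A copy went with D probe set 1 (Pearson r = 0.840, permutation p = 0.00016, adjusted over 6 pairs 0.00096; Spearman rho = 0.903, p = 0.00074, adjusted 0.00444). Leaving out the 2 arrays farthest from the A median, drought 72 HAF replicate 2 and control 72 HAF replicate 1, brought r to 0.576, so much of the relation rested on those arrays. The permutation treats the arrays as exchangeable, although they come from 5 groups. With D probe set 2 the A copy had r = 0.452 (permutation p = 0.18) and rho = 0.406 (p = 0.247), and r = -0.337 without the same 2 arrays. Without control 24 HAF replicate 2 this pair had r = 0.890 over 9 arrays.

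The D probe sets themselves had r = 0.0905 (permutation p = 0.803) and rho = 0.188 (p = 0.606) over 10 arrays, and r = 0.962 and rho = 0.633 over the 9 arrays without control 24 HAF replicate 2. Leaving out that array and drought 72 HAF replicate 2, the 2 farthest from the median, gave r = 0.916. The B copy had r = 0.482 with the A copy (permutation p = 0.148), 0.402 with D probe set 1 (p = 0.264) and 0.0398 with D probe set 2 (p = 0.931). Its rho with them was 0.321 (p = 0.37), 0.273 (p = 0.446) and -0.0061 (p = 1). Without the 2 arrays farthest from the median of the first-named measure, these r were 0.504 for A and B, 0.337 for B and D probe set 1, and -0.317 for B and D probe set 2. Of the 6 pairs, only the A copy with D probe set 1 passed after adjustment over the 10 arrays. Without control 24 HAF replicate 2 that pair had r = 0.902, beside 0.890 for A with D probe set 2 and 0.962 for the D probe sets. The pairs with B then had r = 0.210 to 0.395. No p was computed without that array.

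The 1269 other probe sets with 1 gene symbol were ranked by their correlation with each member over the 10 arrays, as a description of likeness. Arrays share hybridisation and the distribution set by RMA, and the best of so many is high by selection. Most like the A copy were LOC543404 (r = 0.916, rho = 0.903), LOC543171 (0.900, 0.806) and LOC543315, which encodes the actin-binding protein profilin (0.900, 0.806). Without control 24 HAF replicate 2 their r were 0.930, 0.903 and 0.891. LOC543404 ranged from 4.59 to 7.08, while profilin moved only between 12.4 and 12.6. For the B copy the nearest were LOC543111 (r = 0.913, rho = 0.867), LOC542849 (0.870, 0.648) and LOC542866 (0.850, 0.515), at 0.934, 0.851 and 0.926 over 9 arrays.

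For D probe set 1 the nearest was LOC543257, a beta-tubulin gene with the synonym tubb1 (r = 0.977, rho = 0.939), followed by LOC543023 (0.967, 0.661) and LOC543134 (0.957, 0.705). For D probe set 2 it was LOC543258, a beta-tubulin gene with the synonym tubb2 (r = 0.962, rho = 0.770), followed by both probe sets of LOC543081 (0.959 with rho = 0.782, and 0.947 with rho = 0.867). Beta-tubulin is a subunit of microtubules. Over 9 arrays these r were 0.949, 0.953 and 0.905 for probe set 1 and 0.954, 0.951 and 0.952 for probe set 2. The tubulin genes moved little, between 11.8 and 12.3 for tubb1 and between 12.2 and 12.7 for tubb2.

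Of the rest of the gibberellin pathway, searched by symbol and synonym, 0 genes of the earlier synthesis steps, 0 gibberellin 3-oxidases, 0 gibberellin 2-oxidases, 0 receptor, DELLA or GAMYB genes and 0 KNOX genes were found among the 771 genes with a symbol. The other 59906 probe sets carry no symbol here, so these genes were not analysed. The search for gibberellin-induced enzymes found 1 gene, LOC543318, whose synonyms amy1 and BMY1 include that of a beta-amylase. Whether this gene responds to gibberellin was not tested, so it is no measure of a gibberellin response. It read 12.2 and 12.1 in drought seeds and 12.1 and 12.2 in control seeds at 48 HAF. At 72 HAF it read 12.1 and 11.5 in drought seeds and 11.8 and 12.2 in control seeds. The 2 lower arrays of 72 HAF, drought replicate 2 and control replicate 1, were those with the higher A and D values. The difference between drought and control was -0.04 at 48 HAF and -0.18 at 72 HAF, or -0.41 at 72 HAF without control replicate 1, with no call (0%).

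The list made for amylase inhibitors and other antagonists of gibberellin-induced enzymes found 4 genes. ATI and WMAI-1 name alpha-amylase inhibitors of the grain, while LOC542996 has only the synonym wci. Whether any of the 4 genes acts on gibberellin-induced enzymes was not tested. At 48 HAF their median drought difference was -0.08 (1 higher and 3 lower), beside 0.0022 over all probe sets. At 72 HAF it was 2.11 (4 higher), beside 0.03 over all probe sets, and 0 of 4 passed limma's threshold. The inhibitor gene LOC543281 (ATI) read 11.5 and 10.8 in drought 72 HAF seeds and 4.47 and 11.4 in control 72 HAF seeds. LOC543286 (ATI) read 11.3 and 10.6 in drought and 5.19 and 11.3 in control seeds, and LOC542996 (wci) 9.02 and 8.69 in drought and 5.83 and 8.87 in control seeds. In each of these genes and in LOC542981 (WMAI-1; 8.08 and 6.29 in drought, 4.12 and 8.02 in control seeds) control replicate 1 was the low array, while control replicate 2 lay close to drought replicate 1. Without control replicate 1, an alternative chosen after seeing the data, the median difference was -0.32 and all 4 genes were lower in drought seeds.

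Markers of the seed's parts were set beside the copies by array. The 8 endosperm storage protein genes averaged 7.51 and 6.59 in drought 72 HAF seeds and 4.02 and 7.34 in control 72 HAF seeds, and 3.99 to 4.26 on the 48 HAF arrays. D probe set 1 was high on drought replicate 2 (storage mean 6.59) and on control replicate 1 (storage mean 4.02), so its high arrays had storage transcripts in one case and 48 HAF levels of them in the other. On control 24 HAF replicate 2, where D probe set 1 was lowest and D probe set 2 highest, the storage mean was 6.17, against 4.07 on replicate 1. Of the 8 storage genes 7 were higher and 1 lower in drought than in control seeds at 72 HAF, with a median difference of 1.12. Without control replicate 1, 2 were higher and 6 lower, with a median of -0.38. The 4 genes with the largest drought difference over both times, LOC543214, LOC543210, LOC543211 and LOC780582, differed by 3.23, 2.54, 2.32 and 1.25 at 72 HAF, and by -0.33, -0.37, -0.44 and -0.99 without that array. LOC100125692, an avenin-like protein gene, was lower in drought seeds in both cases (-0.49 and -0.66). None of the 8 passed limma's threshold.

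Of the other lists, the one made for aleurone and transfer cells found 4 genes, 3 thionins and LTP3, a lipid transfer protein. They averaged 11.2 and 9.68 in drought and 6.30 and 11.3 in control seeds at 72 HAF, with the same low array. Their median drought difference was 1.91 (4 higher) with that array and -1.09 (4 lower) without it. The thionins were low on control replicate 1, like most storage genes. LTP3 moved little, with 12.8 and 12.6 in drought and 12.5 and 12.7 in control seeds. Whether these genes mark aleurone or transfer cells rather than the rest of the endosperm was not tested. The 3 genes of green tissue, PsbO and PsbP of photosystem II and rbcL of Rubisco, averaged 12.3 and 12.1 in drought and 11.9 and 12.1 in control seeds at 72 HAF. Profilin, the 1 gene found for pollen and anther, read 12.5 and 12.6 in drought and 12.6 and 12.4 in control seeds at 72 HAF. The nucellus list found 0 genes with a symbol. The part of any of these in the values of the gibberellin 20-oxidase copies was not tested.

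**Figure D4:**
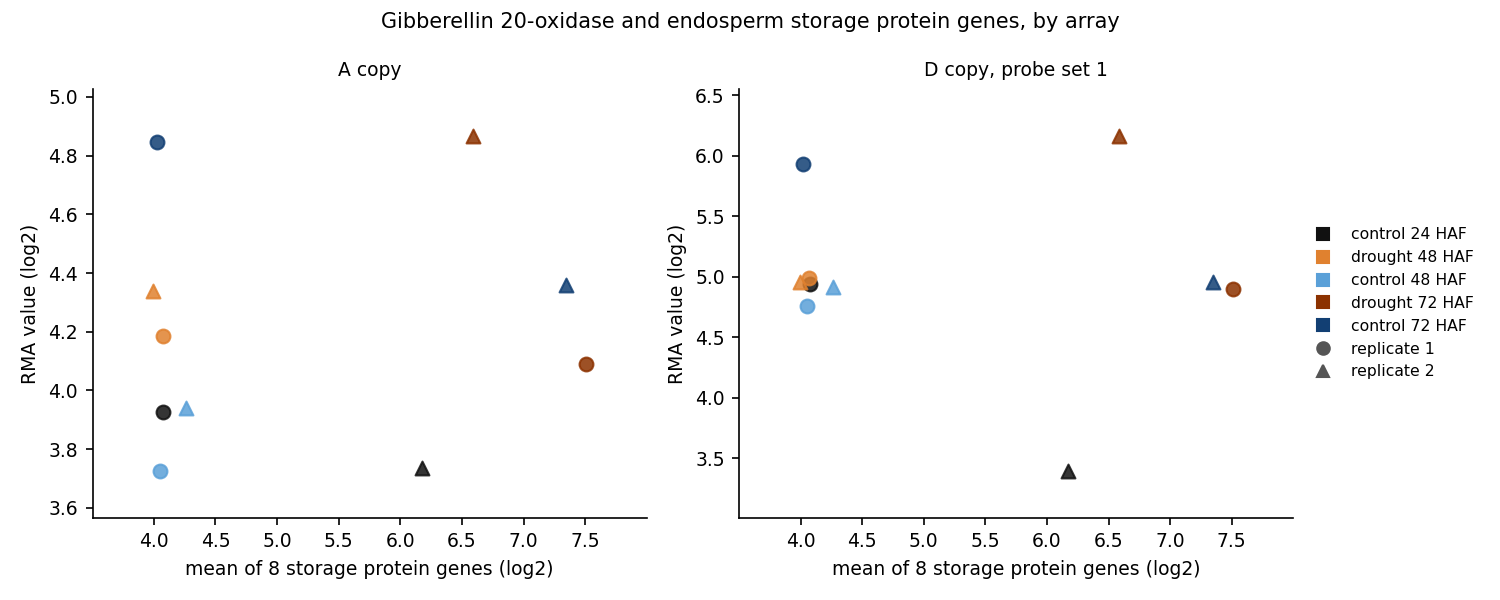
Log2 value of the A copy (left) and of D probe set 1 (right) on the vertical axis against the mean log2 value of 8 endosperm storage protein genes on the horizontal axis, with 1 point per array, coloured by group and shaped by replicate. The arrays with the highest values of A and D probe set 1, drought 72 HAF replicate 2 and control 72 HAF replicate 1, lie at storage means of 6.59 and 4.02. Control 24 HAF replicate 2 has a storage mean of 6.17 with the lowest value of D probe set 1. D probe set 2, not drawn, had its highest value (5.82) on that array.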

How the data were processed

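RNA of whole seeds was hybridised to 1 Affymetrix wheat array per sample, per the labels' protocols. The values deposited by the authors are log2 expression values made with affy and RMA, per the submitters' processing notes, with no version given in those notes. RMA sets all arrays to a common distribution, so a shift shared by all transcripts cannot be seen. Array medians were 4.08 to 4.24 and values 1.03 to 14.1. They were used as deposited, without 111 control probe sets and without a filter on level. Of 61179 tested probe sets, 1273 had 1 gene symbol and 59906 had none.

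Differences were fitted in limma 3.58.1 (R 4.3.3) with 1 mean per group over all 10 arrays, a prior variance that follows mean intensity, 5 residual degrees of freedom with 3.59 added by the prior, and Benjamini-Hochberg adjustment over all tested probe sets at 0.05. Copies were compared by exact two-sided permutation, with intervals from the spread within the 4 groups, and correlations by 100000 permutations (Python 3.11.15, scipy 1.17.1). The limma and permutation steps were tested on simulated data. A list's gene was represented by its brightest probe set, and lists were matched on symbols and RefSeq synonyms. All probe sets of the members were reported, the 3 most correlated probe sets per member were named for likeness, and up to 4 genes per list were named by their drought difference over both times. Members, lists and tests were chosen with earlier results of these data known. Alternatives were array centring, the prior, a level filter, array weights, the replicate block, arrays left out and the mean of the D probe sets.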

Additional observations from a re-analysis of the deposited data

How the results depend on the processing

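Replicate numbers did not pair the arrays: replicate differences correlated between groups at -0.519 to 0.586. With the replicate number as a block, 0 probe sets were called in each of the 9 contrasts, and no member's call changed. Drought and control replicate differences correlated at -0.489 at 48 HAF and -0.519 at 72 HAF, and a crossed replicate block, chosen after seeing the data, also called 0. Array centring, no trend, a robust prior, array weights, only the 48 and 72 HAF arrays, and the filter on level, which removed the B copy, left each member without a call. Weights were equal for both arrays of each group, so they could not lower 1 deviating array against its replicate. With weights, the unadjusted limma p of the A copy was 0.043 for drought at 48 HAF and 0.0077 for control 72 against 48 HAF. For 72 against 48 HAF over both treatments it was 0.034. In these contrasts 2489, 2293 and 7945 of all probe sets had an unadjusted p under 0.05. No other p of a member was then under 0.05. Centring turned D probe set 2 at 72 against 24 HAF to 0.0078, and the mean of the D probe sets turned it to 0.62, turned probe set 2 at 48 against 24 HAF to 0.093 and turned probe set 1 in the difference of drought effects to 0.014. The cause was not tested.

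Leaving out each array in turn, probe sets called ranged from 0 to 2 for drought at 48 HAF, control 72 against 48 HAF and 72 against 48 HAF over both treatments, from 0 to 25621 for control 48 against 24 HAF and from 0 to 22783 for 72 against 24 HAF. Both high counts came without control 24 HAF replicate 1. Drought at 48 HAF ranged over 0.32 to 0.54 (A), 0.028 to 0.38 (B), 0.057 to 0.21 and 0.063 to 0.20 (D). Drought at 72 HAF ranged over -0.51 to 0.26 (A), -0.30 to 0.044 (B), -0.55 to 0.72 (D probe set 1) and -0.38 to 0.80 (D probe set 2). Drought over both times ranged over -0.043 to 0.35 (A), -0.050 to 0.13 (B), -0.21 to 0.43 and -0.13 to 0.47 (D). The difference of drought effects ranged over -0.94 to -0.16 (A), -0.51 to -0.16 (B), -0.68 to 0.59 and -0.52 to 0.67 (D). Control 48 against 24 HAF ranged over -0.11 to 0.11 (A), -0.014 to 0.20 (B), -0.099 to 1.44 and -1.26 to 0.28 (D), and 72 against 24 HAF over 0.085 to 0.43 (B), 0.51 to 2.05 and -0.80 to 0.74 (D). Control 72 against 48 HAF ranged over -0.0062 to 0.34 (B) and -0.018 to 0.92 (D probe set 2). Drought 72 against 48 HAF ranged over -0.17 to 0.61 (A), -0.34 to 0.0091 (B), -0.078 to 1.19 and -0.062 to 1.12 (D), and 72 against 48 HAF over both treatments over -0.088 to 0.088 (B). Between copies, the drought effect ranged over -0.10 to 0.33 (A minus B), -0.081 to 0.16 and -0.13 to 0.095 (A minus D), and -0.41 to 0.27 and -0.45 to 0.19 (B minus D), and the time change over 0.28 to 0.71 (A minus B), -0.92 to -0.24 and -0.81 to -0.17 (B minus D), -0.21 to 0.035 and -0.11 to 0.11 (A minus D). Two-sided exact tests over all 70 arrangements changed no call.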
